A study of Mus musculus with 10 samples.

Results

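Ribosome biogenesis and nucleolar factors were followed in the developing mouse neocortex, the layered outer part of the forebrain in which progenitor cells divide and new neurons settle before birth. The genes were chosen by name: those called Nop, Utp, Rrp or Nol with a number, Imp3, Imp4, the Exosc and Polr1 genes, and Bop1, Pes1, Dkc1, Fbl, Ncl, Npm1, Ftsj3, Gar1, Nhp2, Heatr1 and Nat10, unless the deposited table put them in its translation-associated category. The rule found 53 of the table's 6147 genes. Npm1 was not among the rows, and 0 matched rows were in the translation-associated category. The rule itself uses names and the table's category, not levels, although earlier results of these data were known when it was written.

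All 10 libraries came from whole neocortex of CD1 wild type mice, an outbred strain, with 2 libraries from each of 5 stages. The stages are P0, the day of birth, and before it E12.5, E14, E15.5 and E17, where the number is the age of the embryo in days. The labels name no transgene and no treatment. The series' design text calls the samples biological duplicates, while no source used here gives the animals, sex or litter behind each library. Levels are in TPM (transcripts counted on a fixed total per library), a share of all transcripts of a library corrected for gene length. The lengths used for this are not stated. Mean log2 level still went down with coding length. The Spearman correlation was -0.73 over the 52 genes tested below and -0.52 over all 6048 tested. Its cause was not tested, so abundant and rare below mean only high and low in TPM.

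A ribosome is made in the nucleolus. RNA polymerase I copies the ribosomal DNA into a long precursor RNA, small nucleolar ribonucleoproteins (snoRNPs) guide chemical marks onto it, and large assemblies of maturation factors fold and cut it into the RNAs of the small and the large subunit. The RNA exosome, a ring of subunits with RNA-degrading enzymes attached, trims the ends and destroys the spacers. Dividing cells make many ribosomes, and the genes of this machinery are known targets of the transcription factor Myc.

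By role, the 53 genes comprised 5 subunits of RNA polymerase I, 3 proteins of the box C/D snoRNPs, 4 of the box H/ACA snoRNPs, 19 factors of small subunit maturation, 10 of large subunit maturation, 10 exosome subunits, the abundant nucleolar protein nucleolin (Ncl), and Nol4. Nol4 carries the name nucleolar protein but is not known as a factor of ribosome biogenesis, and it is kept apart from the rest. Exosc6 was listed at 0 TPM in every library. All 1326 bases of its exons lie within exons of Aars, the alanyl-tRNA synthetase gene, on the same strand in the GENCODE M21 annotation, and reads there cannot be given to 1 gene. The other 52 genes had a mean of at least 1 TPM over the libraries and were tested.

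Most of the machinery was lower at birth than at E12.5. Between E12.5 and P0, 38 of the 52 genes fell, 5 rose and 9 did not pass the test (limma on log2(TPM + 1), Benjamini-Hochberg adjusted p under 0.05 over all 6048 genes tested). Of all genes tested, 51.0% fell, 27.1% rose and 78.2% were called in either direction. Counts by role and by list further below are to be read beside these shares. The median change of the 52 was -0.53 on the log2 scale, beside -0.28 for all genes. The steepest falls were those of Exosc3, Heatr1, Dkc1, Utp20 and Ftsj3, and the 5 genes that rose were Nol4, Nol6, Polr1d, Rrp7a and Rrp1.

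The summed level of the 53 genes was 3309 and 3276 TPM in the E12.5 libraries, 3017 and 2949 at E14, 2648 and 2761 at E15.5, 2379 and 2498 at E17, and 2434 and 2596 at P0. Every library from E15.5 on was below every earlier one, and the E17 and P0 libraries overlapped. In single genes, both P0 libraries were below both E12.5 libraries for 44 of 52, a pattern seen in 58.4% of all genes. Both were above for 6, beside 32.5% of all genes, and for Exosc9 and Nol9 the libraries overlapped.

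How much of the fall remains depends on how libraries are scaled. With median-of-ratios scaling, which sets the middle of the genes equal between libraries, 27 genes fell and 7 rose, and their median change was -0.25, beside -0.01 for all genes. With quantile normalization 25 fell and 6 rose, with a median of -0.20 beside -0.05. Of all genes, 37.7% fell and 37.9% rose with median-of-ratios scaling, and 40.0% fell and 36.6% rose with quantile normalization.

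**Figure D1:**
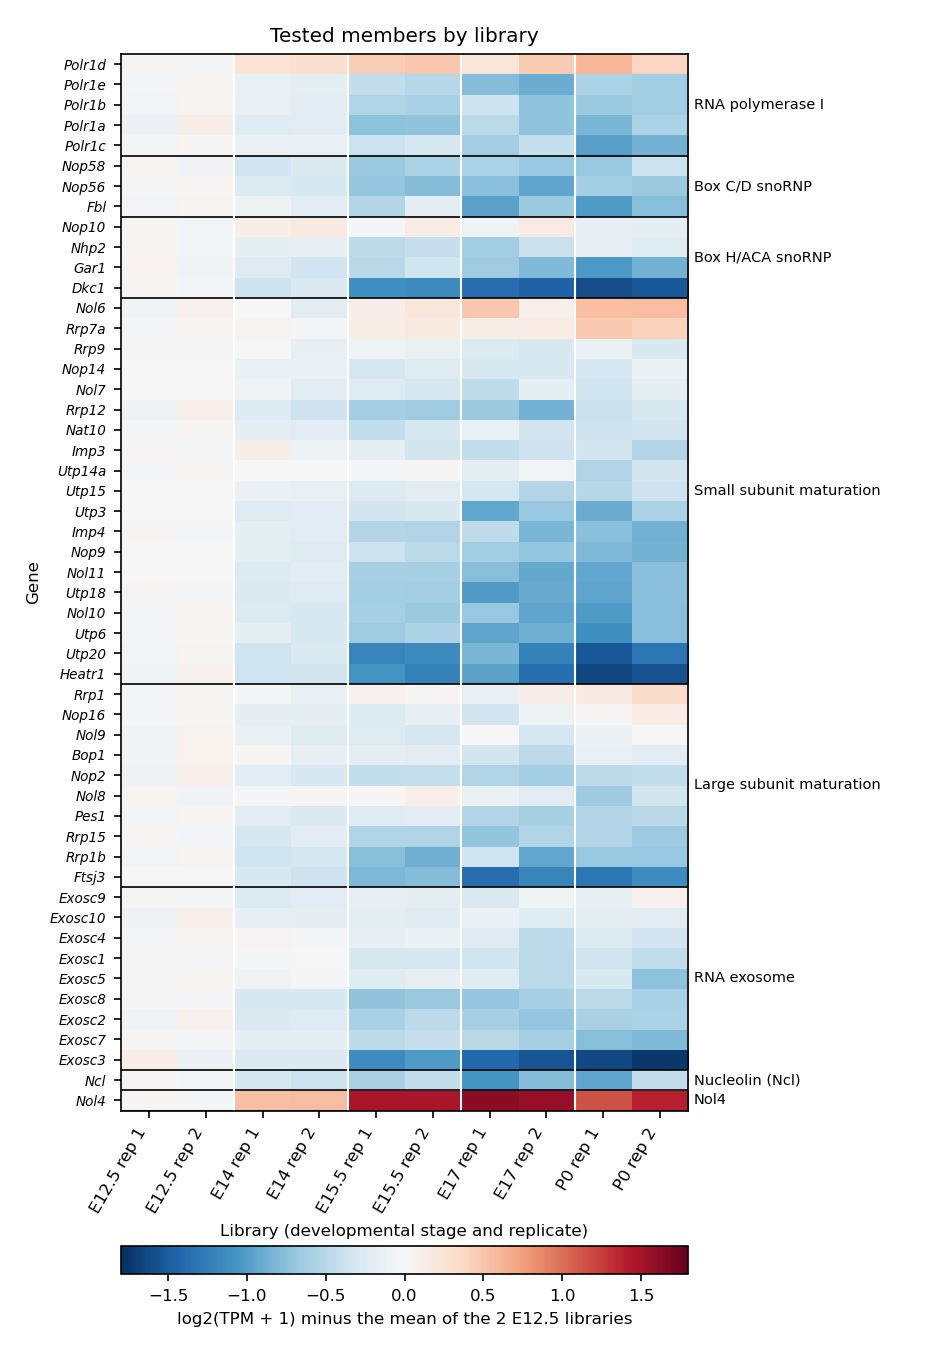
Level of each tested gene in each of the 10 libraries, as the colour of log2(TPM + 1) minus the mean of the 2 E12.5 libraries, with genes in rows grouped by role and libraries in columns by stage. Most rows turn blue (lower) towards E17 and P0, deepest in Exosc3, Heatr1 and Dkc1, and Nol4 turns red (higher).

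Levels of cell type markers moved over the same stages. Of 22 proliferation markers listed, 19 were in the table and all 19 fell from E12.5 to P0, with a median change of -3.78, and their summed level went from 2430 and 2525 TPM to 246.7 and 258.8. The 16 neuronal markers present of 19 summed to 3116 and 3163 TPM at E12.5 and to 10830 and 11790 at P0. Of these 16, 14 rose, and Tbr1 and Bcl11b, transcription factors of deep-layer neurons, fell. Of the 8 progenitor markers present of 12, Fabp7 and Slc1a3 rose and the other 6 fell, and their sum went from 2108 and 2145 TPM to 1654 and 1683. Markers of tissue around the cortex were high at E12.5 and E14: the 5 meningeal markers summed to between 106.0 and 172.8 TPM, the 2 choroid plexus markers present of 4 to between 302.6 and 1517, and the 3 erythroid genes present of 10 to between 1880 and 4494. From E15.5 on none of these 3 sums passed 9.84 TPM. The erythroid sum at E12.5 was mostly Hbb-y, with a mean of 4349 TPM beside 55.61 for Hbb-bh1 and 4.341 for Slc4a1. It follows mainly that 1 globin gene and does not measure the amount of blood. The cortical marker Emx1 was between 51.01 and 177.1 TPM in the libraries. No marker on these lists was at 0 in every library. The part of any of these in the results was not tested, and in bulk tissue fewer cells of a type and less RNA per cell cannot be told apart.

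The E17 libraries differed most from each other. Over all genes, log2 values of the 2 replicates differed with an SD of 0.29 at E17 and of 0.09 to 0.18 at the other stages. Over the 52 genes the SD was 0.22 at E17 and 0.08 to 0.18 elsewhere. At E17 replicate 1 was higher than replicate 2 mostly in genes with long coding sequences, with a Spearman correlation across genes between that difference and coding length of 0.45 over the 52 and 0.55 over all genes. At P0 the same correlation was -0.47 and -0.35. Genes are not independent replicates, so these values only describe the libraries. The steps into and out of E17 below rest on these libraries and are given with and without each.

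RNA polymerase I makes the precursor of the ribosomal RNAs. Of its 5 listed subunits, 4 fell from E12.5 to P0, and Polr1d rose, beside 51.0% and 27.1% of all genes. Polr1c and Polr1d encode a pair of subunits that RNA polymerase III also contains, and they were the most abundant of the 5. Polr1c was at 82.0 and 87.9 TPM at E12.5, 78.1 and 77.3 at E14, 64.8 and 68.4 at E15.5, 54.5 and 62.5 at E17, and 42.7 and 46.5 at P0. The stages followed each other downwards with no overlap, and the change to P0 was -0.91 ± 0.09 (log2, SE, n = 2 libraries a stage; limma adjusted p = 2.03e-06). Polr1d stood at 83.1 and 80.4 TPM at E12.5, 97.9 and 100.5 at E14, 111 and 115 at E15.5, 95.04 and 113 at E17, and 124.8 and 107 at P0. Every later library was above both E12.5 libraries, and the rise to P0 was 0.49 ± 0.10 (limma adjusted p = 0.000638).

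The subunits that belong to RNA polymerase I alone were rarer. Polr1a, the largest subunit, which carries the catalytic centre with Polr1b, had means of 11.25 TPM at E12.5 and 6.56 at P0. Polr1b had means of 13.4 and 8.19 TPM, and Polr1e, which forms part of a subcomplex involved in starting transcription, of 15.8 and 10.2. Their changes were -0.70, -0.65 and -0.59, each past the test in limma. With quantile normalization these 3 falls no longer passed, with changes of -0.20, -0.18 and -0.17 and adjusted p of 0.0639, 0.0560 and 0.0942.

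The box C/D snoRNPs carry out 2′-O-methylation of ribosomal RNA and take part in its cutting, and all 3 of their proteins in the table fell from E12.5 to P0. Fbl encodes fibrillarin, the methyltransferase itself. Its level was 178 and 191 TPM at E12.5, 173 and 160.0 at E14, 128 and 163 at E15.5, 93.7 and 116 at E17, and 90.9 and 108 at P0. The E17 and P0 libraries lay together, below all others, and the change to P0 was -0.89 ± 0.13 (limma adjusted p = 6.54e-05). A pair of other genes, Gm5812 and Tulp4, have transcripts that match at least 50% of the Fbl transcript at 95% identity or more, so reads of Fbl may be shared with them.

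Nop56 and Nop58 encode the paired core proteins that hold the box C/D complex together. Nop56 stood at 79.6 and 83.3 TPM at E12.5, 68.4 and 67.5 at E14, 49.8 and 46.9 at E15.5, 47.8 and 41.8 at E17, and 53.1 and 50.8 at P0. Nop58 stood at 104 and 95.5 TPM at E12.5, 78.6 and 83.2 at E14, 62.4 and 67.1 at E15.5, 67.2 and 62.0 at E17, and 61.8 and 75.9 at P0. Their changes from E14 to E15.5 were -0.48 and -0.32, both past the test, and neither passed at a later step. With median-of-ratios scaling the Nop58 step was -0.20 and did not pass (limma adjusted p = 0.110). Nop56 then rose from E17 to P0 with that scaling (0.32, adjusted p = 0.00493) and with quantile normalization (0.32, adjusted p = 0.00612). To P0, Nop56 changed by -0.64 ± 0.09 and Nop58 by -0.54 ± 0.10 (limma adjusted p = 3.19e-05 and 0.000519).

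The box H/ACA snoRNPs convert uridine to pseudouridine in ribosomal RNA, and the same 4 proteins are part of telomerase. Here the calls differed: Dkc1 and Gar1 fell, while Nhp2 and Nop10 did not pass the test from E12.5 to P0. Without either E17 library, which lowers the shared error, all 4 passed as lower, with unchanged values for Nhp2 and Nop10 (-0.18 and -0.16). The ratios of Dkc1 to each of its partners were tested directly, and those among the partners were not. Dkc1 encodes dyskerin, the pseudouridine synthase, whose human gene is mutated in dyskeratosis congenita, and it lies on chromosome X at 75095854 to 75109777 (GRCm38, plus strand). Its level was 78.4 and 73.3 TPM at E12.5, 58.4 and 63.1 at E14, 34.6 and 33.9 at E15.5, 28.6 and 27.1 at E17, and 24.5 and 25.8 at P0. Each stage lay below the one before with no overlap, and the change to P0 was -1.56 ± 0.09, a 2.94-fold fall on the TPM + 1 scale (limma adjusted p = 1.38e-08). Its changes over the first 3 steps were -0.32, -0.81 and -0.29, all past the test. The first no longer passed with median-of-ratios scaling (adjusted p = 0.0572) or quantile normalization (0.0653).

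Gar1, a small subunit of the complex that acts on substrate release, was at 97.9 and 90.2 TPM at E12.5, 80.2 and 73.98 at E14, 66.1 and 72.9 at E15.5, 60.04 and 53.5 at E17, and 45.5 and 51.7 at P0. It too went down stage by stage without overlap, by -0.94 ± 0.10 to P0 (limma adjusted p = 3.34e-06), although no single step passed the test. Nhp2, the subunit that binds the guide RNA beside dyskerin, stood at 127 and 118 TPM at E12.5, 108 and 111 at E14, 88.0 and 91.8 at E15.5, 79.0 and 92.7 at E17, and 111 and 106 at P0. It was lowest at E17, with a fall of -0.28 from E14 to E15.5 and a rise of 0.34 from E17 to P0, both past the test. The fall was -0.16 with median-of-ratios scaling (limma adjusted p = 0.240) and did not pass with quantile normalization either (0.0862). Nhp2 had a change of -0.18 ± 0.09 over the whole period (adjusted p = 0.0845).

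Nop10, the smallest protein of the complex, with a coding sequence of 192 bases, was the second most abundant of the 53 genes. Its level was 254 and 237 TPM at E12.5, 263 and 274 at E14, 243 and 269.8 at E15.5, 232 and 271 at E17, and 222 and 217 at P0. Its change to P0 was -0.16 ± 0.09 and did not pass (limma adjusted p = 0.118), nor did it pass in the test over the 5 stages.

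**Figure D2:**
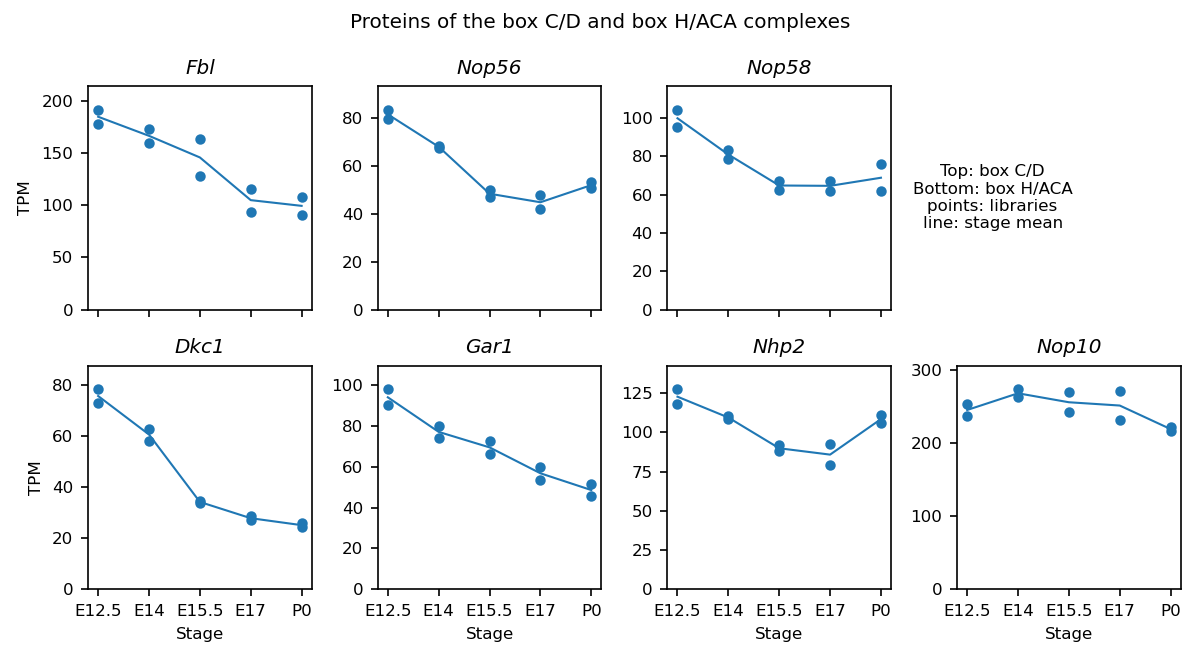
Level in TPM (vertical axes from 0) of the 3 box C/D and 4 box H/ACA proteins at each stage, with points for the 2 libraries and a line through the stage means. Dkc1 drops from 78.4 and 73.3 TPM to 24.5 and 25.8, while Nop10 stays between 217 and 274 in all libraries.

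The ratio of partners within a library does not depend on how the libraries are scaled to each other, apart from the added 1 TPM. The log2 ratio of Dkc1 to Nhp2 was -0.69 and -0.68 at E12.5, -0.88 and -0.80 at E14, -1.32 and -1.41 at E15.5, -1.44 and -1.74 at E17, and -2.14 and -1.996 at P0. It went down at each stage with no overlap. An exact permutation test, with the F statistic taken for each of the 945 possible splits into 5 pairs, gave p = 0.00106, the smallest this design allows, and 0.00476 after Benjamini-Hochberg adjustment over 9 pairs of partners. For Dkc1 against Nop10 the ratio moved by -1.40 from E12.5 to P0 (exact permutation test, adjusted p = 0.0159), and against Gar1 by -0.62 (adjusted p = 0.0762).

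Polymerase partners differed as much. The log2 ratio of Polr1c to Polr1d moved from -0.02 and 0.13 at E12.5 to -1.52 and -1.19 at P0, a difference of -1.41 (exact permutation test, adjusted p = 0.00476). The ratio of Bop1 to Pes1 moved by 0.34 (adjusted p = 0.0333), a call that was lost in 7 of the 10 fits that left out 1 library. The other 4 pairs did not pass the exact permutation test: Nop56 to Nop58 moved by -0.10 (adjusted p = 0.464), Fbl to Nop56 by -0.25 (0.337), Imp3 to Imp4 by 0.38 (0.396) and Polr1a to Polr1b by -0.05 (0.464). These p-values do not show that those partners stayed level.

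**Figure D3:**
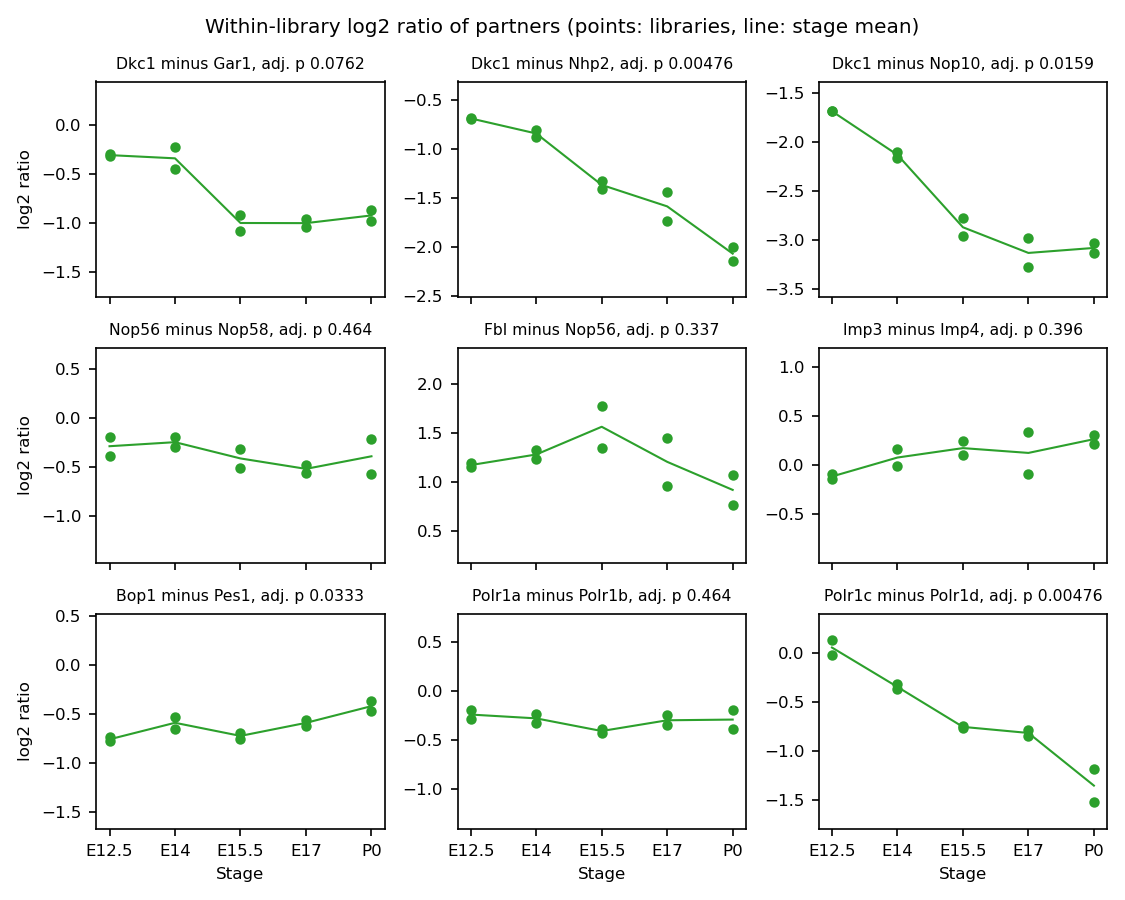
Log2 ratio of 9 pairs of partner proteins in each library, by stage, with points for libraries and lines through the stage means. The ratios of Dkc1 to Nhp2 and to Nop10 and of Polr1c to Polr1d move down, by -1.38, -1.40 and -1.41 from E12.5 to P0.

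The promoters of the H/ACA genes are shown here because the ratios of Dkc1 to Nhp2 and to Nop10 moved within 1 complex. That of Dkc1 to Gar1 did not pass, and the other pairs among the 4 were not tested. Each is the 200 bases before the start of the gene (RefSeq, GRCm38.p6), with capitals on matches to CCGGAAG, a motif of the ETS family of transcription factors, on either strand. Gar1 and Nhp2 each hold 1 match. Dkc1 and Nop10 hold none, so 1 gene that fell and 1 that was not called carry it. Coordinates are chrX:75095654-75095853 plus strand for Dkc1, chr3:129831397-129831596 minus strand for Gar1, chr11:51619573-51619772 plus strand for Nhp2 and chr2:112261726-112261925 plus strand for Nop10.
Dkc1: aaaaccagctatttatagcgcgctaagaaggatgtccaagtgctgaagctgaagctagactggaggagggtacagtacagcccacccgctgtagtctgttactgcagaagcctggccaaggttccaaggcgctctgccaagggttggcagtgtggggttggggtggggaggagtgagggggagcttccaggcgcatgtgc
Gar1: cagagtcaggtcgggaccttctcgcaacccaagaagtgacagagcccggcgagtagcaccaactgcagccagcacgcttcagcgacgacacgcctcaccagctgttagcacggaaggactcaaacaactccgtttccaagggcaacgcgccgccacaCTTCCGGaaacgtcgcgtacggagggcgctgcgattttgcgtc
Nhp2: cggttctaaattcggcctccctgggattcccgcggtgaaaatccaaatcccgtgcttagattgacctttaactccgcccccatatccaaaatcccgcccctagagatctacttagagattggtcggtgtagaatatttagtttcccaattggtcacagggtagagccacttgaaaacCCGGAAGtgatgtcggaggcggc
Nop10: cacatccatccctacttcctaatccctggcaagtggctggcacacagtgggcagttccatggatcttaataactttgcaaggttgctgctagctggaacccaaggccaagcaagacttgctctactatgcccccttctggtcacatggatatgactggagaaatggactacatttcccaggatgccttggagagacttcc

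Small subunit maturation was the biggest group. Its factors act in the small subunit processome, the assembly that forms on the precursor RNA while it is being made, and in later steps of trimming and modification. Of 19 genes, 15 fell from E12.5 to P0, Nol6 and Rrp7a rose, and Nop14 and Rrp9 did not pass. Of all genes, 51.0% fell and 27.1% rose. Heatr1, whose protein joins the precursor early, together with the polymerase, had the steepest fall of the group. It lies on chromosome 13 at 12395027 to 12440289 (GRCm38, plus strand). Its level was 10.7 and 12.1 TPM at E12.5, 8.66 and 8.84 at E14, 4.86 and 4.35 at E15.5, 5.37 and 3.86 at E17, and 2.996 and 3.16 at P0. P0 lay below every earlier library, and the change was -1.60 ± 0.14 (limma adjusted p = 5.75e-07). Utp20, a very large scaffold protein, also low in level, went from a mean of 6.38 TPM to 1.77, a change of -1.42 ± 0.14 (adjusted p = 2.38e-06). With quantile normalization Heatr1 was at -0.97 and Utp20 at -0.80, both past the test.

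Utp6, Nol10, Utp18, Nol11, Nop9, Imp4 and Utp3 fell by between 0.73 and 0.93 on the log2 scale. Most are structural members of the processome. Nol11 and Utp15, like Heatr1, belong to its subcomplex linked with transcription, and Imp3 and Imp4 join the guide snoRNA U3 to the precursor. Of the exons of Nop9, 29.9% overlap those of Cideb on the opposite strand, and whether the authors' counting used strand is not stated. Utp15, Utp14a, Imp3, Nat10, Rrp12 and Nol7 fell by between 0.27 and 0.44. None of these 6 passed with median-of-ratios scaling, and with quantile normalization Imp3 alone of them did (-0.30). The sign of Nat10, the RNA acetyltransferase, and of Rrp12, an export factor, turned with quantile normalization, and that of Nol7 with median-of-ratios scaling. Of the exons of Nol7, 16.5% overlap those of Ranbp9 on the opposite strand, and Imp3 has a near-identical copy in 4933427G23Rik. Nop14 and Rrp9, a protein of the U3 particle, changed by -0.21 and -0.20 (adjusted p = 0.0899 and 0.0808).

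Nol6 and Rrp7a, the pair that rose, belong together: their yeast counterparts bind each other in the module of the processome called UtpC. Rrp7a was below Nol7 and Imp4 at E12.5 and the highest of the 19 at P0, with 88.9 and 92.9 TPM at E12.5, 93.7 and 89.1 at E14, 97.9 and 101 at E15.5, 98.1 and 99.96 at E17, and 126 and 122 at P0. Its rise of 0.44 ± 0.07 (limma adjusted p = 0.000135) came mostly at the last step, where it rose by 0.32. Nol6 stood at 19.9 and 22.3 TPM at E12.5, 21.2 and 18.3 at E14, 23.1 and 24.4 at E15.5, 30.0 and 22.5 at E17, and 31.2 and 31.6 at P0. It was highest at birth, with a rise of 0.55 ± 0.13 (adjusted p = 0.00252), and the E17 libraries disagreed on when the rise came. Of 5411 exon bases of Rrp7a, 678 overlap exons of Serhl on the opposite strand.

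Promoter windows of the genes were searched for CACGTG, the E-box that Myc and related factors bind, whose complement reads the same on the other strand. RefSeq windows of 300 bases, from 250 before the gene's start to 50 after it, were found for 45 of the 53 genes, 48 windows in all. The E-box was in 8 of 48 windows (16.7%), beside 7.15% of all 32851 windows and 10.4% of windows of genes tested here. Of the 8 genes with it, Imp4, Nop2, Exosc5, Utp20, Pes1, Utp18 and Nol11 fell from E12.5 to P0 and Rrp7a rose. The ETS motif CCGGAAG, searched on both strands, was in 13 of 48 windows (27.1%), beside 8.86% of all windows and 19.0% of those of genes tested. Of those 13 genes 11 fell, and Exosc10 and Nhp2 were not called. With or without a motif, 38 of the 52 tested genes fell, and 51.0% of all genes. Whether either motif goes with the fall was not tested. A match is a description of the sequence, and no binding was measured.

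The E-boxes that lie before the gene's start are printed to show the bases around the motif in 5 genes that fell and in Rrp7a, which rose. Each line gives the 24 bases on either side where they lie before the start (GRCm38.p6, RefSeq), with the E-box in capitals. Positions are chr1:34439684-34439737 plus strand for Imp4, chr6:125131799-125131852 plus strand for Nop2, chr7:25659085-25659138 plus strand for Exosc5, chr11:93885767-93885810 minus strand for Utp18, chr11:107189395-107189448 minus strand for Nol11 and chr15:83122980-83123033 minus strand for Rrp7a.
Imp4: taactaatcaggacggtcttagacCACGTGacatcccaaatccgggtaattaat
Nop2: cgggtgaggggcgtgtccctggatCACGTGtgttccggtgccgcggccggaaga
Exosc5: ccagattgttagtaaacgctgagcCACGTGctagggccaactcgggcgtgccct
Utp18: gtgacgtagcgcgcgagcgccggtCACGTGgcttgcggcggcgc
Nol11: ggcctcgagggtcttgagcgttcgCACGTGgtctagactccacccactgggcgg
Rrp7a: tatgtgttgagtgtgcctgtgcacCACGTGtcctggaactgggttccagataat

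In Nol11, Utp18, Exosc5 and Nop2 the first base of the E-box lies between 20 and 60 bases before the start, in Imp4 at 121 and in Rrp7a at 208. Utp20 and Pes1 hold theirs 38 and 3 bases after the start, and those are not printed.

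Large subunit maturation counted 10 genes, of which 6 fell from E12.5 to P0, Rrp1 rose, and Bop1, Nol9 and Nop16 did not pass. Its count of falls was near the share of all genes, of which 51.0% fell and 27.1% rose. With median-of-ratios scaling 4 of the 10 fell and 3 rose, beside 37.7% and 37.9% of all genes. With quantile normalization 4 fell and 2 rose, beside 40.0% and 36.6%. Ftsj3, a methyltransferase that acts on precursor RNA, fell most. Its level was 36.5 and 36.2 TPM at E12.5, 29.9 and 27.9 at E14, 20.2 and 20.8 at E15.5, 13.4 and 15.2 at E17, and 14.2 and 16.2 at P0. It went down to E17 without overlap and stayed there, with a change to P0 of -1.21 ± 0.10 (limma adjusted p = 6.47e-07). Rrp1b, Rrp15, Pes1, Nol8 and Nop2 fell by between 0.45 and 0.68 on the log2 scale. With median-of-ratios scaling and quantile normalization the falls of Nol8 (-0.24 and -0.0069) and Nop2 (-0.19 and -0.11) no longer passed, and Nol8 was at -0.33 without P0 replicate 1. Nop2 is a methyltransferase of the large ribosomal RNA.

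Rrp1 was the most abundant of the 10. Its level was 154 and 159 TPM at E12.5, 153 and 142 at E14, 164 and 160.1 at E15.5, 143 and 167 at E17, and 174 and 197 at P0. P0 was above all earlier libraries, with a rise of 0.24 ± 0.09 (limma adjusted p = 0.0291), and the call was lost in 3 of the fits without 1 library. Its paralog Rrp1b went the other way, with a change of -0.68 ± 0.16 from a mean of 20.7 TPM at E12.5. Pes1 and Bop1 encode neighbours in 1 complex of large subunit assembly: Pes1 went from a mean of 63.7 TPM to 44.3 (change -0.51 ± 0.08, adjusted p = 9.75e-05), and Bop1 from 37.1 to 32.8 (-0.17 ± 0.10, adjusted p = 0.130). Reads of Pes1 may be shared with Gm5472 and Gm5910, which hold near-identical copies. Nol9, a kinase that acts on a cut end of precursor RNA, changed by -0.05 and Nop16 by 0.08 (adjusted p = 0.681 and 0.445). With median-of-ratios scaling both were called higher, Nol9 at 0.21 (adjusted p = 0.0446) and Nop16 at 0.35 (0.0120). With quantile normalization Nol9 was called higher (0.23, adjusted p = 0.0214) and Nop16 was not (0.20).

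The RNA exosome has a ring and a cap, made by Exosc1 to Exosc9, and the enzyme Exosc10 bound to it in the nucleus. Of 9 tested subunits 7 fell from E12.5 to P0, beside 51.0% of all genes, and Exosc9 and Exosc10 did not pass. Exosc3, a cap subunit whose human gene is mutated in pontocerebellar hypoplasia, had the steepest fall of all 52 genes, and lies on chromosome 4 at 45316613 to 45342732 (GRCm38, minus strand). Its level was 55.6 and 48.2 TPM at E12.5, 43.0 and 42.9 at E14, 23.0 and 24.96 at E15.5, 18.7 and 17.1 at E17, and 16.1 and 14.8 at P0. Every stage lay below the one before, and the change was -1.68 ± 0.10, a 3.21-fold fall on the TPM + 1 scale (limma adjusted p = 3.46e-08). Of this, -0.82 came between E14 and E15.5.

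The other ring and cap subunits moved far less. Exosc7, Exosc2, Exosc8, Exosc5 and Exosc1 fell by between 0.40 and 0.78 on the log2 scale. With median-of-ratios scaling and quantile normalization the falls of Exosc5 (-0.24 and -0.20) and Exosc1 (-0.13 and -0.17) no longer passed. Without P0 replicate 2 Exosc5 was at -0.28 and did not pass. Exosc4, the most abundant subunit, was at 62.8 and 64.8 TPM at E12.5, 66.0 and 62.5 at E14, 57.6 and 59.0 at E15.5, 54.0 and 45.9 at E17, and 53.4 and 50.2 at P0. Its libraries of the first 2 stages lay above the rest, and its change was -0.30 ± 0.09 (limma adjusted p = 0.0110), a fall no longer past the test with median-of-ratios scaling or quantile normalization. Of its exons, 19.8% overlap those of Oplah on the opposite strand.

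Exosc9 was at 28.2 and 27.5 TPM at E12.5, 23.4 and 24.3 at E14, 24.9 and 24.5 at E15.5, 23.0 and 26.4 at E17, and 24.98 and 29.3 at P0. The first and last stages overlapped, and the change was -0.04 ± 0.11 (limma adjusted p = 0.749). Of its exons, 10.8% overlap those of Ccna2, a cyclin gene of dividing cells, on the opposite strand. Exosc10, the nuclear enzyme, changed by -0.19 ± 0.10 (adjusted p = 0.0983). Exosc3 went from a mean of 51.9 TPM to 15.44, from above Exosc9 in every E12.5 library to below it in every P0 library. The difference between these subunits was not tested.

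**Figure D4:**
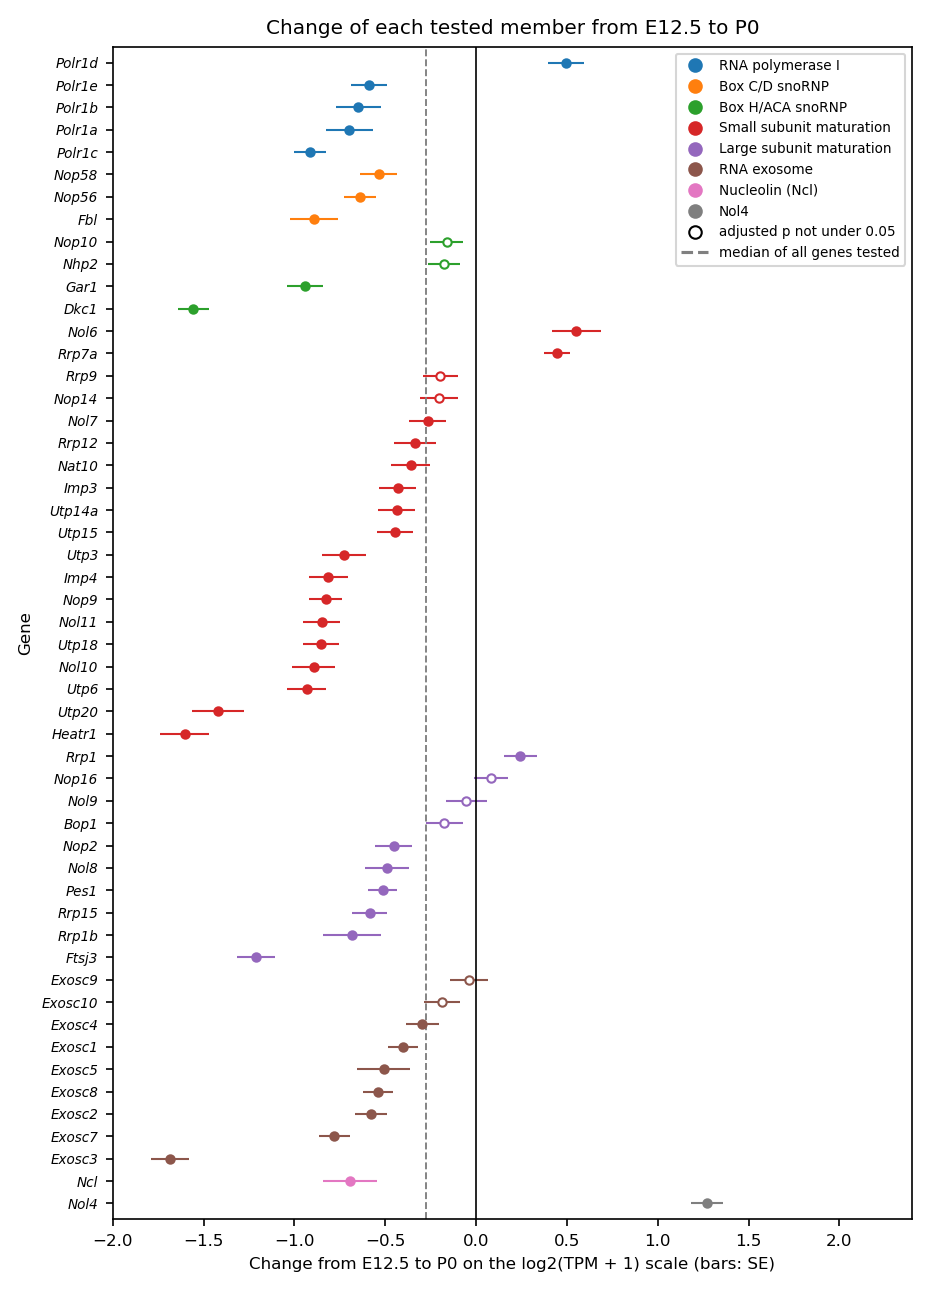
Change from E12.5 to P0 of each tested gene as the log2 difference of TPM + 1 (horizontal axis), ordered and coloured by role, with bars of 1 SE, open points for genes not past the test and a dashed line at the median of all genes. Most points lie left of 0, with Exosc3 at -1.68 and Heatr1 at -1.60 farthest left and Nol4 at 1.27 farthest right.

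Ncl encodes nucleolin, which binds ribosomal DNA chromatin and precursor RNA, and was the most abundant of the 53 genes. Its level was 421 and 392 TPM at E12.5, 326 and 310.0 at E14, 272 and 299.5 at E15.5, 192 and 237 at E17, and 209.8 and 299 at P0. E12.5 lay above E14 and both above all later libraries, but the libraries of E17 and P0 spread widely. The change to P0 was -0.69 ± 0.15 (limma adjusted p = 0.00102), and no single step passed. It was -0.44 without P0 replicate 1 and -0.95 without P0 replicate 2, both past the test.

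Nol4, brought in by its name, ran against the others. Its level was 38.3 and 36.6 TPM at E12.5, 54.9 and 55.5 at E14, 105 and 105 at E15.5, 117 and 114 at E17, and 84.2 and 100 at P0. It rose up to E15.5 and fell at the last step by 0.32 on the log2 scale, and its rise over the whole period was 1.27 ± 0.09 (limma adjusted p = 9.45e-08). Without Nol4, 4 genes rose and 38 fell of 51, with a median change of -0.54.

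Over all 5 stages in 1 test, 45 of the 52 genes differed between stages (limma F test, adjusted p under 0.05), beside 82.9% of all genes. Those that did not pass were Exosc9, Exosc10, Nol7, Nol9, Nop10, Nop14 and Rrp9. The highest stage mean was at E12.5 for 42 genes. The lowest was at E17 for 20, at P0 for another 20, at E15.5 for 6, and at E14 and E12.5 for 3 each. Highest and lowest stages were not counted over all genes, so these counts do not set the 52 apart.

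Between E12.5 and E14, Nol4 rose and Dkc1 fell, 2 of 52, beside 8.73% of all genes called, 4.78% lower and 3.95% higher. That count was 22 without either E17 library, whose spread enters the shared error, and 0 without E12.5 replicate 2, E14 replicate 1 or E14 replicate 2. Shares of all genes are not given for the fits without 1 library, here and below, so their counts do not set the 52 apart. Between E14 and E15.5, 24 genes fell and Nol4 rose, beside 51.7% of all genes called, 33.3% lower and 18.4% higher. The steepest of these falls were those of Utp20 (-0.87), Exosc3 (-0.82), Dkc1 (-0.81) and Heatr1 (-0.80). The count was 12 without E14 replicate 1, 11 without E14 replicate 2, and 10 without either E15.5 library. With median-of-ratios scaling 13 fell and 4 rose at this step, and with quantile normalization 13 fell and 2 rose. Of all genes, 25.7% and 26.9% fell and 26.1% and 25.9% rose in these fits. At this step the meningeal, choroid plexus and erythroid marker sums also dropped, from at least 106.0 TPM in every E14 library to at most 9.84 in every E15.5 library, and their part in the falls was not tested.

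Between E15.5 and E17, 8 genes fell and 0 rose, beside 25.0% of all genes called, 10.6% lower and 14.4% higher. The 8 were Utp3 (-0.51), Ftsj3 (-0.49), Fbl (-0.47), Exosc3 (-0.40), Polr1e (-0.36), Utp18 (-0.34), Pes1 (-0.34) and Dkc1 (-0.29). Leaving out E17 replicate 1 gave 15 calls, all lower. Leaving out E17 replicate 2 gave 16, of which 4 were higher, and there were 1 and 0 without E15.5 replicates 1 and 2. Between E17 and P0, Rrp12, Nhp2, Rrp7a, Nop16 and Rrp1 rose by between 0.26 and 0.42, and Heatr1, Utp20, Polr1c, Utp14a, Nol4 and Exosc7 fell by between 0.23 and 0.45. Of all genes 41.7% were called at this step, 28.8% lower and 12.9% higher. The 11 calls became 12 without E17 replicate 1, with 8 higher and 4 lower, and 19 without E17 replicate 2, with 7 higher and 12 lower. They became 6 without either P0 library. The direction of this step rests on the scaling: 9 rose and 3 fell with median-of-ratios scaling, and 12 rose and 1 fell with quantile normalization. Of all genes, 21.4% and 20.8% rose and 22.6% and 19.6% fell in these fits.

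Against E12.5, the median change of the 52 genes was -0.18 in the E14 libraries, -0.40 by E15.5, -0.56 by E17 and -0.53 by P0. It went down over the first 3 steps, and the last step was close to 0. All these values share the E12.5 libraries. The size of the steps depends on the scaling. The median change from E14 to E15.5 was -0.21, but -0.09 with median-of-ratios scaling and -0.13 with quantile normalization. From E17 to P0 it was 0.03, but 0.14 and 0.18 with these scalings.

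**Figure D5:**
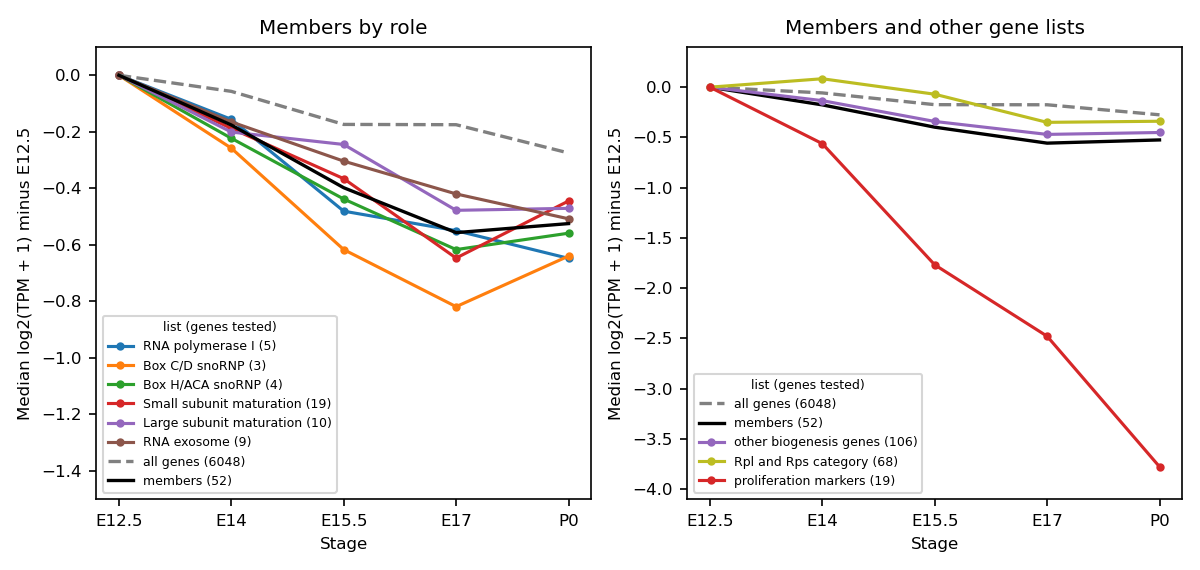
Median log2(TPM + 1) of gene lists at each stage minus that at E12.5, on the left for the roles and on the right for the 52 genes beside other lists. The 52 genes lie below all genes tested at each later stage, and the proliferation markers go down to -3.78 at P0.

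Other genes of the same pathway that the naming rule did not reach were read from lists by role. Of 137 symbols listed, 107 were among the rows and 106 were tested. From E12.5 to P0, 75 fell and 3 rose, with a median change of -0.45. Of all genes tested, 51.0% fell and 27.1% rose, with a median change of -0.28. With median-of-ratios scaling 50 fell and 16 rose, with a median of -0.19, beside 37.7% and 37.9% of all genes. The lists, like the 53 genes, were drawn up with earlier results of these data known.

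Of 37 small subunit factors 28 fell, most of all Lyar (-1.47 ± 0.11) and Bms1 (-1.24 ± 0.12), the latter a GTPase of the processome, and Riok3 rose (0.46 ± 0.07). Nob1, the nuclease that makes the last cut of small subunit RNA, changed by 0.08 (limma adjusted p = 0.455). Of 44 large subunit factors 31 fell and 0 rose, and the steepest were the helicase Ddx18 (-1.55 ± 0.11) and Mybbp1a (-1.37 ± 0.12). The highest values, 0.15 for Wdr18 and 0.11 for Gnl3l, did not pass. Among 8 polymerase I factors 6 fell, led by Tcof1 (-1.22 ± 0.17), whose human gene is mutated in Treacher Collins syndrome, and by Rrn3 (-0.60 ± 0.07), the factor that brings the polymerase to its promoter. Polr2l and Polr2f, subunits that the nuclear RNA polymerases share, changed by 0.12 and 0.10 and did not pass.

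Of 10 snoRNP partners 6 fell, beside 51.0% of all genes. The steepest were Ruvbl2 (-1.22 ± 0.08), an ATPase of snoRNP assembly, and Naf1 (-1.02 ± 0.10), an H/ACA assembly factor that Gar1 replaces. Pih1d1, a member of the same assembly chaperone, rose (0.38 ± 0.08), and Znhit3 changed by 0.16 (limma adjusted p = 0.221). Of 7 exosome cofactors 4 fell, beside the same 51.0%, among them the helicase Skiv2l2 (-1.14 ± 0.12) and Zcchc8 (-0.49 ± 0.10). Dis3l, a cytoplasmic exosome nuclease, rose (0.43 ± 0.12), while Papd5 changed by -0.16 (limma adjusted p = 0.153). Of 7 genes of the Myc family the table held 2. Max, the partner of Myc, rose (0.32 ± 0.08), and Mnt changed by 0.11 (limma adjusted p = 0.578).

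Products of the pathway and related genes gave the following counts from E12.5 to P0. They are for TPM as deposited, and those with median-of-ratios scaling or quantile normalization are not given here. Of 68 tested genes in the table's ribosomal protein category 38 fell and 1 rose, with a median of -0.34. Of 74 translation-associated genes 56 fell and 5 rose, with a median of -0.59. Of 53 mitochondrial ribosomal proteins, whose ribosomes are made outside the nucleolus, 37 fell and 1 rose, with a median of -0.38. Of all genes tested, 51.0% fell and 27.1% rose over the same period, with a median of -0.28. The medians of these lists, of the 52 genes and of all genes were not tested against each other.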

How the data were processed

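Messenger RNA libraries (TruSeq Stranded mRNA) were made from lysates of frozen neocortex cleared by centrifugation, per the labels' protocols. STAR, Subread and build GRCm38.p5 are named in the submitters' processing notes. The authors deposited TPM for 6147 genes in 10 libraries, and read depth is unknown, since TPM keep no counts. No source used here states the annotation, the gene lengths or how rows were picked.

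Stages came from the labels. Genes with a mean under 1 TPM (99) were left out. log2(TPM + 1) of 6048 genes was fitted with limma 3.58.1 in R 4.3.3, 1 mean per stage, a variance trend, and Benjamini-Hochberg adjusted p under 0.05 as the call. Fold changes on this scale understate those of low genes. With 2 libraries a stage, the error was shared over stages. Partner ratios had an exact permutation test. Both tests were tried on simulated data first.

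Overlaps, coordinates and copies came from GENCODE M21 (BLAST+ 2.17.0), promoters from RefSeq, and tables from Python 3.11.15. Values per library were given for the genes with the highest mean, the largest fall and the largest rise in each role, for snoRNP proteins, for genes that rose and for the 3 largest changes. The members and lists were chosen with earlier results of these data known. Alternatives were other pseudocounts, filters, scalings, a replicate block, fits of 2 stages and each library left out, and for the ratios the last was added after seeing the data.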

Additional observations from a re-analysis of the deposited data

How the results depend on the processing

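Of the 43 genes called from E12.5 to P0, 28 were called in every alternative they entered (27 in all 18, Utp20 in 17, since the 5 TPM minimum leaves it out) and 40 kept their direction. Calls were lost for 11 with median-of-ratios scaling and 13 with quantile normalization. The 3 exceptions were Nat10 (0.0526) and Rrp12 (0.17) with quantile normalization and Nol7 (0.00843) with median-of-ratios scaling. Among genes not called, the sign turned with median-of-ratios scaling for Bop1 (0.0949), Exosc10 (0.0774), Exosc9 (0.23), Nhp2 (0.10), Nol9 (0.21), Nop10 (0.11), Nop14 (0.0548) and Rrp9 (0.0697), and with quantile normalization for Bop1 (0.0882), Exosc10 (0.10), Exosc9 (0.24), Nol9 (0.23), Nop14 (0.16) and Rrp9 (0.0866). Leaving out 1 library moved Exosc9 between -0.15 and 0.0723 and Nol9 between -0.12 and 0.0152. The count of genes called from E12.5 to P0 ranged from 31 to 48 over these settings. From E12.5 to E14 the 2 calls became 1 with median-of-ratios scaling, 4 with quantile normalization, 1 with a replicate block, 0 to 22 without 1 library and 30 when only those stages were fitted. The step from E14 to E15.5 (25) gave 15 with quantile normalization, 10 to 30 without 1 library and 38 with those stages alone. The step from E15.5 to E17 (8) gave 13 with median-of-ratios scaling, 17 with quantile normalization, 0 to 16 without 1 library and 0 with those stages alone. The step from E17 to P0 (11) gave 6 to 19 without 1 library and 0 with those stages alone. Leaving out 1 library moved the ratio of Dkc1 to Gar1 between -0.67 and -0.56, past the threshold in 2 of 10 fits, that of Bop1 to Pes1 between 0.29 and 0.39, that of Nop56 to Nop58 between -0.28 and 0.0747, and that of Polr1a to Polr1b between -0.15 and 0.0499 (0.0033 with a pseudocount of 10 TPM). The causes were not tested, and the counts in this paragraph are given without the shares of all genes. The difference between replicates 1 and 2 correlated between stages by -0.38 to 0.11. This cannot settle whether libraries of different stages share a litter or batch, so any pairing stays unknown. The replicate block moved no other count by over 1.5 times. TPM are shares of a total and carry no depth, so counting error of low genes such as Utp20 is unknown.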
